A study of Homo sapiens with 4 samples.

Results

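The 10 genes described here encode bone morphogenetic protein (BMP) ligands and proteins that modulate these ligands outside the cell or at its surface. They comprise the ligands BMP2, BMP4, BMP5, BMP6 and BMP7, the secreted antagonists NOG (noggin), CHRD (chordin) and GREM1 (gremlin 1), the pseudoreceptor BAMBI and the co-receptor RGMA. They were taken by symbol from the deposited expression tables, which list 17894 genes, and every symbol was found once. RNA-SEQ was performed on H1 cells, a human embryonic stem cell line, that had been induced toward hematopoiesis on mAGM-S3 stromal cells of mouse origin and sorted as TRA-1-85+ human cells at day 2. The series holds 4 such libraries. The control library was made from wild-type cells without addition, and the R-spondin2 library from wild-type cells whose medium held R-spondin2 (20 ng/mL) on the first day of differentiation. The other 2 libraries, clone 1 and clone 2, came from LGR4-/- H1 lines, for which the labels name no R-spondin2. LGR4 encodes a receptor for R-spondins, and each clone is a single line whose derivation is not given in the sources used here. Each condition or clone was therefore represented by 1 library, and differences between control and R-spondin2 have no replicate check.

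BMPs are secreted dimers of the TGF-β superfamily that assemble type I and type II serine/threonine kinase receptors and signal through SMAD1, SMAD5 and SMAD9. In the early embryo and in differentiating pluripotent stem cells, BMP4 is known as an inducer of the primitive streak and of the mesoderm that gives rise to blood. The range of the signal is set outside the cell: noggin, chordin and gremlin 1 bind the ligands and keep them from their receptors, BAMBI resembles a type I receptor but lacks the kinase, and RGMA is a membrane-anchored co-receptor for BMP2 and BMP4.

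Expression was deposited as FPKM, which scales the fragments of a gene to its transcript length and to the depth of the library. Levels were compared between genes and between libraries on this scale. Rescaling by median ratios, tried as an alternative, had factors of 0.989 to 1.02. The values below are FPKM as deposited, to 2 decimals. From the steps of the low values, the depth was estimated at 8680000 to 8910000 reads per library, and read numbers given for a gene are implied by its FPKM, its transcript length and this estimate. With this estimate 76.3 to 77.7% of low FPKM came to a whole read number within 0.2, and 40.6 to 47.3% did so when lengths were shuffled among genes. For LGR4, the gene targeted in the clones, FPKM was 21.77 in the control, 24.26 with R-spondin2, 7.40 in clone 1 and 13.95 in clone 2, so that its RNA was lower but still present in both libraries labelled LGR4-/-.

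Among the ligands, BMP2 and BMP4 made up most of the signal. BMP2 was at 71.55 FPKM in the control, 95.77 with R-spondin2, 16.21 in clone 1 and 28.41 in clone 2. BMP4 was at 67.39 FPKM in the control, 98.26 with R-spondin2, 9.65 in clone 1 and 22.47 in clone 2. For both genes each wild-type library lay above each clone, with R-spondin2 the highest and clone 1 the lowest. In a bulk sample such a difference may stand for fewer cells of an expressing type or for less RNA per cell, and these cannot be told apart.

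BMP6 and BMP7, which belong to another branch of the family, were far lower and varied little. BMP7 was at 6.06 FPKM in the control, 6.85 with R-spondin2, 5.03 in clone 1 and 5.23 in clone 2. BMP6 was at 3.55, 4.01, 3.73 and 3.25 FPKM in the same order, and here the wild-type libraries and the clones overlapped. BMP5, of the same branch, was scarcely detected, at 0.28 FPKM in the control, 0.37 with R-spondin2, 0.03 in clone 1 and 0.08 in clone 2. These BMP5 values correspond to 10, 13, 1 and 3 implied reads.

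**Figure D1:**
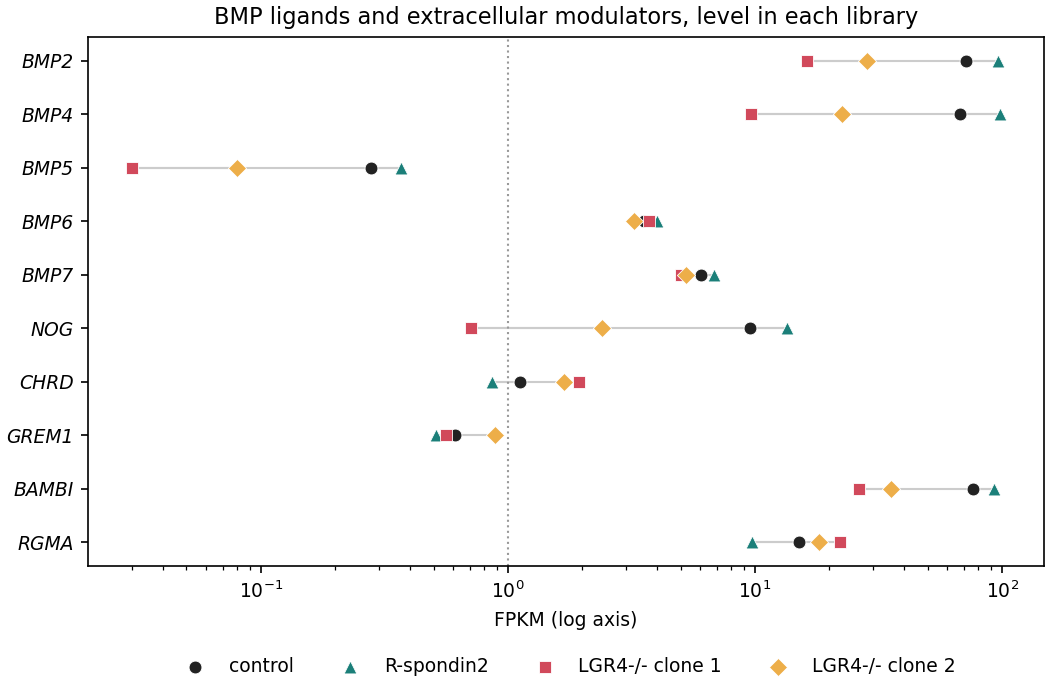
FPKM of the 10 genes (rows) in the control, R-spondin2 and 2 LGR4-/- libraries, on a log axis, with a dotted line at 1 FPKM. BMP2, BMP4, NOG and BAMBI spread widely with both clones at the low end, BMP6 and BMP7 are narrow, and for CHRD and RGMA both clones lie at the high end.

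Summed over the 5 ligands, the level was 148.8 FPKM in the control, 205.3 with R-spondin2, 34.65 in clone 1 and 59.44 in clone 2. BMP2 and BMP4 together accounted for 93.4% of this sum in the control, 94.5% with R-spondin2, 74.6% in clone 1 and 85.6% in clone 2. The sum of BMP6 and BMP7 stayed between 8.48 and 10.86 FPKM in the 4 libraries, so their share of the ligand RNA was 6.46% in the control and 25.3% in clone 1. The ratio of BMP4 to BMP2 also differed: BMP4 was at 0.942 times the level of BMP2 in the control, 1.03 times with R-spondin2, 0.595 times in clone 1 and 0.791 times in clone 2.

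The secreted antagonists went separate ways. NOG was at 9.52 FPKM in the control, 13.42 with R-spondin2, 0.71 in clone 1 and 2.40 in clone 2, or 160, 220, 12 and 40 implied reads. CHRD was low throughout, and its order was the opposite, with 1.12 FPKM in the control, 0.86 with R-spondin2, 1.93 in clone 1 and 1.69 in clone 2. By its shortest transcript, CHRD had 34, 25, 58 and 50 implied reads in these libraries. GREM1 was at 0.61, 0.51, 0.56 and 0.89 FPKM in the same order, with the wild-type libraries and the clones overlapping. Of the 3 antagonists NOG held 84.6% of the summed FPKM in the control and 90.7% with R-spondin2, but 22.2% in clone 1, where CHRD was the highest, and 48.2% in clone 2. Set against its main ligands, NOG stood at 6.85% of the summed BMP2 and BMP4 level in the control and 6.92% with R-spondin2, and at 2.75% and 4.72% in clones 1 and 2.

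**Figure D2:**
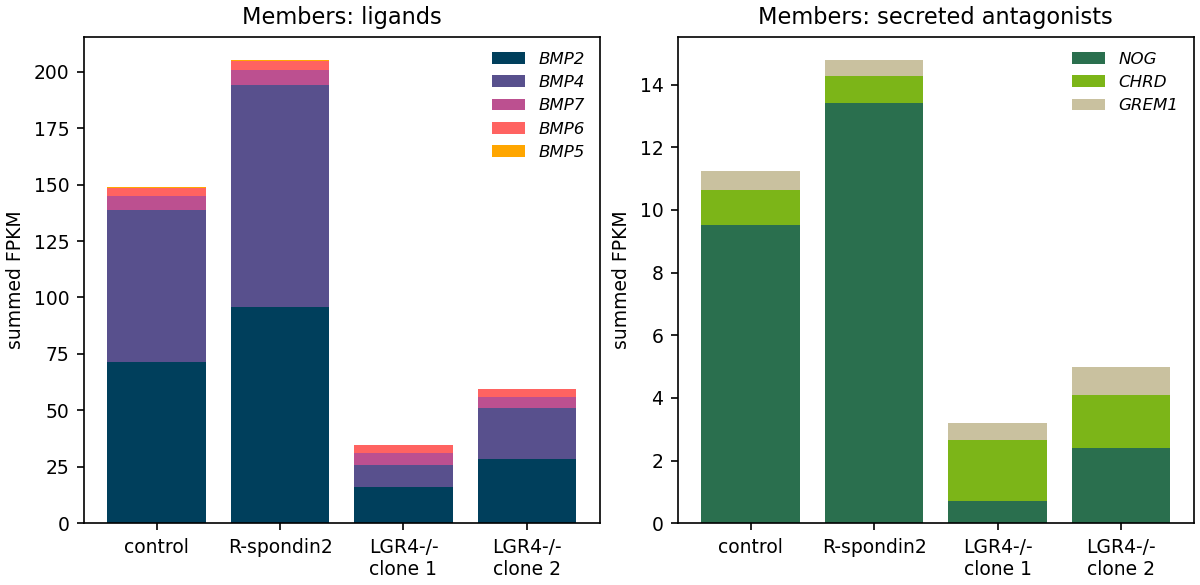
Summed FPKM of the 5 ligands (left) and of the 3 secreted antagonists (right) in each library, with each segment the FPKM of 1 gene; the vertical axes differ in range. The clones hold 34.65 and 59.44 FPKM of ligand RNA against 148.8 in the control, and NOG shrinks from 9.52 to 0.71 and 2.40 FPKM while the CHRD segment grows.

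At the cell surface, BAMBI was among the highest of the 10 genes, at 76.26 FPKM in the control, 92.54 with R-spondin2, 26.34 in clone 1 and 35.59 in clone 2. Its ratio to the summed BMP2 and BMP4 level was 0.549 in the control, 0.477 with R-spondin2, 1.02 in clone 1 and 0.699 in clone 2. RGMA ran the other way, with 15.12 FPKM in the control, 9.76 with R-spondin2, 21.99 in clone 1 and 18.13 in clone 2. For both genes the wild-type libraries and the clones did not overlap.

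The stretches of 250 bases before the annotated start are shown for a pair of genes lower in the clones, BAMBI and BMP4, and a pair higher there, CHRD and RGMA. They were taken from RefSeq on GRCh38.p14, are written 5′ to 3′ on the gene's strand, and carry in capitals each GGCGCC, a GC-rich element that SMAD1 and SMAD5 are known to bind. The BAMBI window is chr10:28677271-28677520 on the plus strand, the BMP4 window chr14:53955051-53955300 on the minus strand, the CHRD window chr3:184379804-184380053 on the plus strand and the RGMA window chr15:93089212-93089461 on the minus strand. For BMP4 and RGMA, which have several annotated starts, the outermost is shown.
BAMBI: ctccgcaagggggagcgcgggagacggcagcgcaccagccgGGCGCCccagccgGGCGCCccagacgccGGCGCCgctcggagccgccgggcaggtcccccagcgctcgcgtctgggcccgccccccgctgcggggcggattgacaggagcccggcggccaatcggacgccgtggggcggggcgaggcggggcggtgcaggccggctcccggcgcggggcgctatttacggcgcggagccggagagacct
BMP4: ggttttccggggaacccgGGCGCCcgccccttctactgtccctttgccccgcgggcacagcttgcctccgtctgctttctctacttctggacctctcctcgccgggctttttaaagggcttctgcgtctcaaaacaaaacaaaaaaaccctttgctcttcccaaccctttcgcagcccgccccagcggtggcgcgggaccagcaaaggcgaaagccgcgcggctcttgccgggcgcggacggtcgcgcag
CHRD: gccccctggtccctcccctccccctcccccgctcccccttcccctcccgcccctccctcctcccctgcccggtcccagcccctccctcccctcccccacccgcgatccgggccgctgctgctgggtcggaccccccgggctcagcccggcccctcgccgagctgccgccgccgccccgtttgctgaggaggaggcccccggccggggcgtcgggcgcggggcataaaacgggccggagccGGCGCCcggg
RGMA: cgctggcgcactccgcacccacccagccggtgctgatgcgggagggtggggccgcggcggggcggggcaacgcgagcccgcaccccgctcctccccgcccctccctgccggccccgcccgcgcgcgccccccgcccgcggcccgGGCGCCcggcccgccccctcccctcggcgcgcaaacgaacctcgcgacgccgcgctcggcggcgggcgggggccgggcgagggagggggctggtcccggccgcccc

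The element occurred 3 times in the BAMBI window, beginning 209, 196 and 181 bases before the start, and 1 time in each of the other windows shown, which were chosen because they hold it. It was looked for in 14 windows of the 7 genes that had one (BMP4, BMP5, BMP6, CHRD, GREM1, BAMBI and RGMA); GGCGCC reads the same on both strands. Of these windows 5 held it, the fifth being a GREM1 window, and 9 did not, among them the other windows of BMP4 and RGMA. The windows shown were rich in G and C, at 81.2% for BAMBI, 63.6% for BMP4, 81.6% for CHRD and 86.4% for RGMA, against a median of 58% over all windows. Of all 35116 windows of this length in the table, 16.4% held it at least once and 0.527% at least 3 times. The TCF/LEF-type words CTTTGA and CTTTGT, searched on both strands, were found in 22.8% of all windows and, among the 14 windows, in GREM1 only. A match is a stretch of letters and not a measured binding site, and genes lower and higher in the clones both had one.

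To ask how R-spondin2 altered these genes, the treated library was compared with the control on the log2(FPKM+1) scale, which understates changes of low genes. A gene was kept where its mean over the 4 libraries reached 1 FPKM, which left 12697 in all and 8 of the 10 described here; BMP5 and GREM1 were below. None of the 8 differed by 2-fold, a size reached by 0.0473% of all kept genes as higher and by 0.173% as lower. The differences were 0.54 for BMP4, 0.45 for NOG, 0.42 for BMP2, 0.28 for BAMBI, 0.15 for BMP7 and 0.14 for BMP6, while CHRD was at -0.19 and RGMA at -0.58. Of the kept genes, 99.3% lay below BMP4 in this comparison and 1.48% below RGMA. The ratio of implied reads for NOG was 0.50 in log2 (95% Clopper-Pearson interval 0.20 to 0.80) and that for BAMBI was 0.28 (0.17 to 0.39), intervals that cover counting error only. For BMP7 the interval ran from -0.09 to 0.45 and for BMP6 from -0.25 to 0.61, and neither gene could be told from the control at this depth. The median over the 8 genes was 0.21, against -0.01 over all kept genes.

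To ask how the same genes stood in the libraries labelled LGR4-/-, in which LGR4 RNA was lower but present, both clones were set against the control library, which the R-spondin2 comparison shares. BMP2, BMP4, NOG and BAMBI were at least 2-fold lower in each clone, 4 of the 8 genes kept, where 1.08% of all kept genes were. None of the 8 was at least 2-fold higher in both clones, as 0.236% of all kept genes were. NOG differed by -2.13 on the log2(FPKM+1) scale (SD 0.70 over the 2 clones), and its FPKM was 13.4-fold lower in clone 1 and 3.97-fold lower in clone 2. BMP4 differed by -2.11 (SD 0.81), with 14.3% and 33.3% of the control FPKM left in clones 1 and 2. BMP2 was at -1.69 (SD 0.55) and BAMBI at -1.29 (SD 0.30). Of all 12697 kept genes, 9 had a lower mean difference than NOG, 10 than BMP4, 44 than BMP2 and 114 than BAMBI.

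The other kept genes lay nearer to the control. CHRD was at 0.41 (SD 0.09) and RGMA at 0.38 (SD 0.19), BMP7 was at -0.20 (SD 0.03) and BMP6 at -0.02 (SD 0.11), the last with clone 1 above and clone 2 below the control. For BMP7 the interval of the read ratio ran from -0.56 to 0.02 in clone 1 and from -0.51 to 0.07 in clone 2. For BMP5, which the filter left out, it ran from -8.76 to -0.51 in clone 1 and from -4.22 to 0.24 in clone 2. Both clones lay below both wild-type libraries for BMP2, BMP4, BMP7, NOG and BAMBI and above both for CHRD and RGMA. These are 5 and 2 of 8 genes, but 27.6% of all kept genes lay below and 34.4% above in this way, so that such separation was common among all genes. CHRD passed the filter of 1 FPKM only through the clones, where it was high, so its place among the 8 is not independent of that difference.

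**Figure D3:**
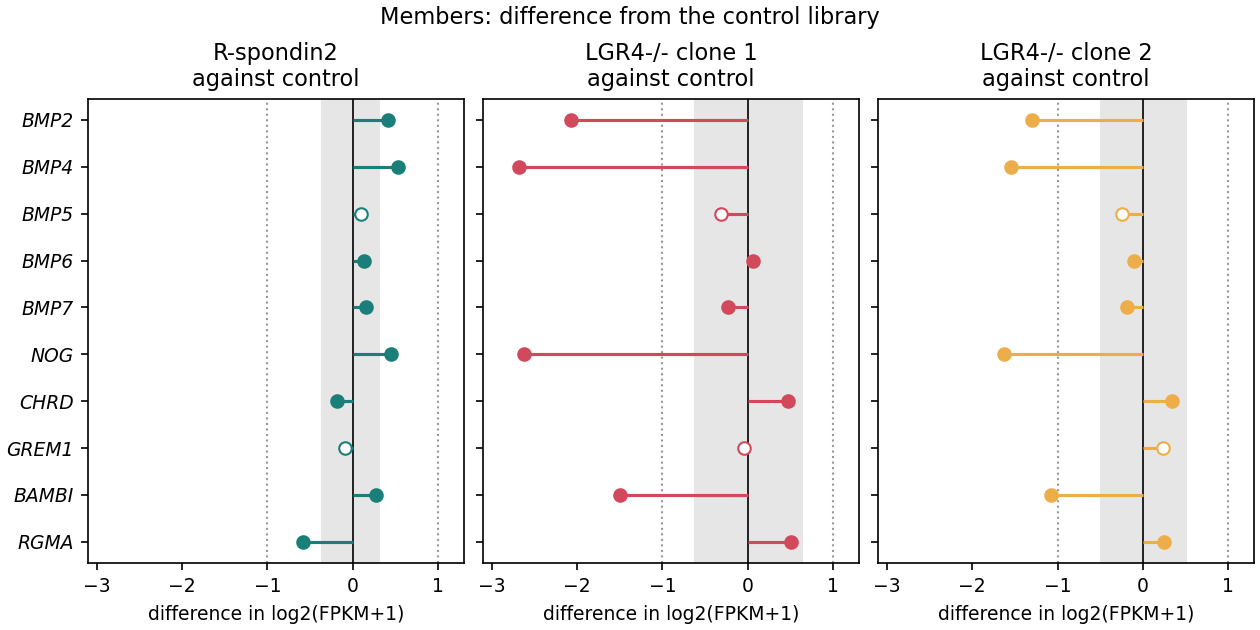
Difference in log2(FPKM+1) from the control library for the R-spondin2 library and each LGR4-/- clone; open circles mark BMP5 and GREM1, under a mean of 1 FPKM, grey bands span the 5th to 95th percentile of the 12697 kept genes, and dotted lines mark 2-fold. BMP2, BMP4, NOG and BAMBI lie left of -1 in both clones, and with R-spondin2 RGMA lies left of the band and BMP4, NOG and BMP2 right of it.

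A test of LGR4-/- against control was possible with limma across all kept genes, in which the clones gave the 1 residual degree of freedom and the lone control library was assumed to vary as the clones do. No gene of the 12697 passed an adjusted p of 0.05, the share of calls being 0%, while 2332 genes (18.4%) had an unadjusted p under 0.05. Among the latter were BMP2, BMP4, NOG and BAMBI as lower, where 8.19% of genes were, and RGMA as higher, where 10.2% were. Adjusted p-values by limma were 0.0809 for BAMBI, 0.0942 for BMP2, 0.0988 for NOG and 0.107 for BMP4. They ranged under the alternatives from 0.00815 to 0.368 for BAMBI, 0.00988 to 0.392 for BMP2, 0.0104 to 0.396 for NOG and 0.0122 to 0.421 for BMP4. The call thus rests on settings: all 4 genes passed where genes under a mean of 5 FPKM were left out, and where the control and R-spondin2 libraries were pooled as wild type. NOG reached a mean of 5 FPKM only through the wild-type libraries, where it was high, so its call under that filter is not independent of the difference tested. The low end of each range came from the pooled fit, which is another contrast because it counts treated cells as wild type. The differences there were -1.90 for BMP2, -2.38 for BMP4, -2.35 for NOG and -1.43 for BAMBI. With the R-spondin2 library in place of the control as reference, the same 4 of 8 genes were at least 2-fold lower in both clones, where 1.81% of all kept genes were, and none was at least 2-fold higher, where 1.67% were.

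Clone 1 and clone 2 were also compared with each other. BMP4 was 2.33-fold higher in FPKM in clone 2 than in clone 1, a log2(FPKM+1) difference of 1.14, and was the only one of the 8 kept genes past 2-fold on that scale, where 0.173% of kept genes were higher and 0.0788% lower in clone 2. NOG was 3.38-fold higher in FPKM, with a log2(FPKM+1) difference of 0.99, and its read ratio of 1.76 in log2 had an interval of 0.80 to 2.82. The read ratio of clone 2 to clone 1 was 0.81 for BMP2 (interval 0.65 to 0.97) and 0.44 for BAMBI (0.25 to 0.62). For BMP6 and BMP7 the intervals ran from -0.65 to 0.25 and from -0.25 to 0.36. LGR4 itself was 1.89-fold higher in clone 2.

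Of all kept genes, the 3 whose differences in the R-spondin2 library and the clones lay nearest to those of BMP4 were NOG, MESP1 and MSX1, at Euclidean distances of 0.135, 0.145 and 0.196 log2 units over these 3 differences. MESP1, a transcription factor of nascent mesoderm, was at 38.45 FPKM in the control, 57.26 with R-spondin2, 5.64 in clone 1 and 13.39 in clone 2. MSX1, a homeobox gene known as a BMP target, was at 40.42, 51.75, 5.65 and 13.51 FPKM in the same order. Among the members, BMP2 ranked 33rd and BAMBI 106th of all kept genes by this distance to BMP4, and RGMA 11831st. The distance rests on 3 differences that share a control library and describes these libraries only. It was taken on the log2(FPKM+1) scale, which understates changes of low values such as those of NOG in the clones. On that scale the mean clone difference was -2.13 for NOG and -2.11 for BMP4, but -2.76 and -2.19 with a pseudocount of 0.1 FPKM. In FPKM, clones 1 and 2 held 7.46% and 25.2% of the control level for NOG, and 14.3% and 33.3% for BMP4. Whether NOG stays nearest with another pseudocount was not tested.

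Beyond the 10 genes, a list of BMP pathway genes was examined by role, of which 56 were found in the tables and 38 kept. At least 2-fold lower in both clones were 4 of the 38 (CER1, BMPER, SMAD6 and MSX1) and 1 was at least 2-fold higher (GDF3), beside 1.08% and 0.236% of all kept genes. The median of the mean clone difference was -0.16 over the list and 0.02 over all kept genes. With R-spondin2 none of the 38 differed by 2-fold, and the median was 0.10.

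Outside the cell, CER1, an antagonist of NODAL and BMP ligands, was the highest gene of the list and stood far above NOG. It was at 2395.47 FPKM in the control, 3467.35 with R-spondin2, 598.84 in clone 1 and 1033.60 in clone 2. BMPER, a secreted BMP-binding modulator, was at 16.57 FPKM in the control, 19.52 with R-spondin2, 2.24 in clone 1 and 4.64 in clone 2. Of the 11 further antagonists and modulators kept, CER1 and BMPER included, 8 were lower in both clones than in both wild-type libraries and 2 were higher, beside 27.6% and 34.4% of all kept genes. Of the 8, NBL1 passed the filter only through the wild-type libraries, with 1.11 FPKM in clone 1 and 0.80 in clone 2. Among the other ligands GDF3, a TGF-β superfamily member expressed in pluripotent cells, was at 8.92, 7.88, 22.02 and 20.54 FPKM in the order control, R-spondin2, clone 1 and clone 2. The only protease kept, BMP1, which cleaves chordin, was at 5.08, 7.71, 2.97 and 4.21 FPKM in that order.

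Among the receptors, 3 of 6 were lower in both clones than in both wild-type libraries and 1 was higher, again beside 27.6% and 34.4% of all kept genes. BMPR1A, the highest receptor of the list and a type I receptor for BMP2 and BMP4, was at 26.87 FPKM in the control, 24.21 with R-spondin2, 29.73 in clone 1 and 32.34 in clone 2. NEO1, a receptor for RGM proteins, stayed between 13.68 and 16.04 FPKM. No receptor or co-receptor kept was 2-fold lower in both clones on the log2(FPKM+1) scale. The receptor ACVRL1, named after its values were seen, was at 2.05 FPKM in the control, 2.73 with R-spondin2, 0.42 in clone 1 and 0.89 in clone 2, which in FPKM is 4.88-fold and 2.30-fold lower. ACVRL1, 1 of the 3 lower receptors, passed the filter only through the wild-type libraries. SMAD6, an inhibitory SMAD, was at 20.38 FPKM in the control, 27.97 with R-spondin2, 4.89 in clone 1 and 7.93 in clone 2. The targets did not move as 1 group. Of the 6, 3 were lower in both clones than in both wild-type libraries and 2 higher, beside the same 27.6% and 34.4%. With R-spondin2, MSX1, MSX2 and ID2 lay above the control, and ID1, ID3 and ID4 below it. MSX1 was low in the clones, whereas ID1, the highest target, was at 170.06 FPKM in the control, 108.20 with R-spondin2, 193.31 in clone 1 and 176.22 in clone 2. ID1 was thus lowest with R-spondin2, where BMP2 and BMP4 were highest, and was the 1 gene of the 38 past 1.5-fold there on the log2(FPKM+1) scale (BMP1 was 1.52-fold higher in FPKM), as 1.46% of all kept genes were in the lower direction.

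**Figure D4:**
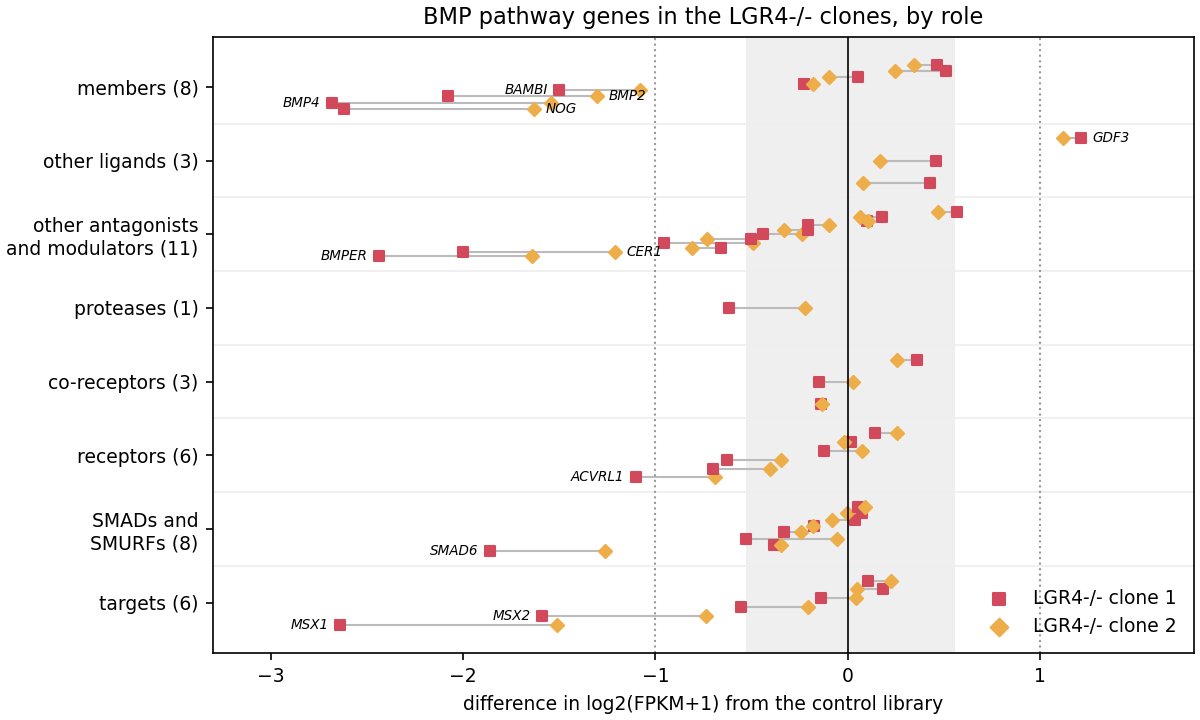
Difference in log2(FPKM+1) from the control library in LGR4-/- clone 1 (squares) and clone 2 (diamonds) for kept BMP pathway genes by role, with the number of genes in parentheses and a line joining the clones for each gene; the grey band spans the 5th to 95th percentile of the mean clone difference over all kept genes, and dotted lines mark 2-fold. BMP4, NOG, BMP2, BAMBI, BMPER, CER1, SMAD6 and MSX1 lie left of -1 in both clones and GDF3 right of 1, while the 3 co-receptors lie within the band.

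Markers of cell types were counted in the same way, by whether both clones lay below or above both wild-type libraries, as 27.6% and 34.4% of all kept genes did. All 9 markers of primitive streak and mesoderm were lower in both clones than in both wild-type libraries, with summed levels of 1114 FPKM in the control, 1451 with R-spondin2, 393.9 in clone 1 and 612.2 in clone 2. The size was uneven: in clone 2, T (brachyury) and KDR were at 94.6% and 95.6% of the control FPKM, and HAND1 and MESP1 at 28.2% and 34.8%. All 8 pluripotency markers were higher in both clones, with sums of 1389, 1145, 2210 and 2068 FPKM in that order. Of 5 definitive endoderm markers 3 were lower and 1 higher in both clones, with sums of 210.9, 263.0, 84.73 and 113.8 FPKM. Of the 7 amnion- or trophoblast-like markers 3 were kept, 2 lower and 1 higher in both clones, at sums of 8.08 to 13.12 FPKM. Of these, GATA3 passed the filter only through the wild-type libraries, and KRT7, the higher 1, only through the clones. Of 5 neuroectoderm markers 2 were kept, and the sums ran from 43.66 to 60.23 FPKM, with SOX1 at 0.00 in both wild-type libraries and 0.03 in each clone. Of 8 stromal or fibroblast markers 7 were kept, 4 lower and 1 higher in both clones, with sums of 222.9 to 308.6 FPKM, the highest with R-spondin2. LUM, 1 of the 4 lower, passed the filter only through the wild-type libraries, at 0.16 and 1.45 FPKM in clones 1 and 2. The part of these marker differences in the levels of BMP2, BMP4, NOG and BAMBI was not tested.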

How the data were processed

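RNA-SEQ libraries of sorted TRA-1-85+ H1 cells, taken from mAGM-S3 co-culture on day 2, were analyzed. The authors deposited FPKM per gene to 2 decimals for RefSeq genes, without read counts. The submitters' processing notes name hg19, BWA, Bowtie and RSEM, and their roles, versions and filters are not given in the sources used here. The tables' annotation columns were not used. Errors of mapping or isoform assignment enter these values, most for genes with several transcripts (BMP4, CHRD, GREM1 and RGMA).

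From the deposited values, log2(FPKM+1) differences were computed for genes whose mean reached 1 FPKM. A gene was counted as changed at 2-fold, in each clone for LGR4-/-. limma 3.58.1 with a mean-variance trend (R 4.3.3) and Benjamini-Hochberg adjustment was fitted to 4 libraries in 3 groups. It was also run on simulated data in which every gene had the same spread and the control varied like the clones. That run cannot show how the fit performs for genes whose clones differ as widely as those of BMP4. Depth was the number of reads at which FPKM under 0.6 of transcripts under 1500 bases came nearest to whole reads, with GENCODE 29 lengths for 8068 genes with 1 transcript. Exact (Clopper-Pearson) 95% intervals were computed for read ratios of genes with 1 transcript where both libraries together had at least 10 implied reads. Other tools were Python 3.11.15, numpy 2.4.6, scipy 1.17.1, pandas 2.3.3 and matplotlib 3.10.9.

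The members and lists were chosen with earlier results of these data known. Named genes were the members, LGR4, the 3 genes nearest to BMP4, and of the pathway list every gene past 2-fold and the highest of each role. Other pathway genes and markers were named after their values were seen. BMP15 was not analysed here. Alternatives were other pseudocounts, filters, scaling, thresholds, reference libraries, limma settings and leaving out each clone. The only replicate spread behind the p-values is that between the clones and, where the control and R-spondin2 libraries were pooled, also between those libraries. For each gene limma moves this spread toward that of genes of similar level. In the fit described, this prior had 4.05 degrees of freedom beside the 1 residual. The p-values therefore do not measure a gene's own SD over the clones.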

Additional observations from a re-analysis of the deposited data

How the results depend on the processing

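The counts of members at least 2-fold apart (4 lower and 0 higher in the clones, 0 with R-spondin2) were the same under a pseudocount of 0.1 FPKM, no filter, a mean of at least 5 FPKM, median-ratio rescaling and a 1.5-fold threshold. RGMA with R-spondin2 lay just short of 1.5-fold, at -0.58 on the log2(FPKM+1) scale, but was 1.55-fold lower in FPKM. With a pseudocount of 0.1 FPKM its difference was -0.63. The count of 4 lower was also the same without either clone and with the R-spondin2 library as reference. In the BMP pathway list, a 1.5-fold threshold gave 7 genes lower in the clones in place of 4 (5 with a pseudocount of 0.1 FPKM or the R-spondin2 library as reference, and 4 to 6 without either clone), and 1 lower with R-spondin2 in place of 0.

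The limma calls, 0 in the fit described, depended on the settings. A mean of at least 5 FPKM gave 497 calls (230 higher, 267 lower), 4 of them members and 5 in the pathway list, from fewer genes tested. Of these, the member NOG and the list gene BMPER reached that mean only through the wild-type libraries, where they were high. Median-ratio rescaling gave 88 (38 higher, 50 lower), 1 of them in the pathway list and 0 members; the cause was not tested. The control and R-spondin2 libraries taken as 2 wild-type libraries gave 1862 (1015 higher, 847 lower), 4 of them members and 13 in the pathway list, with 1 more residual degree of freedom. A pseudocount of 0.1 FPKM, no filter, no trend and a fit of the control and clones only gave 0, with 2262 to 2408 genes at an unadjusted p under 0.05. Leaving out a clone reversed the difference from control for BMP6 (-0.098 to 0.056) and GREM1 (-0.046 to 0.23). No paired analysis was possible because the control and R-spondin2 conditions have 1 library each. Depth limits the low values, among them BMP5 with 1 to 13 implied reads, NOG with 12 in clone 1 and CHRD with 25 to 58 by its shortest transcript.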
